A study of Mus musculus with 12 samples.

Results

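Slc39a8-IEC KO and control mice were compared in ileal mucosa, in 6 RNA-seq libraries of the 12 in the series, chosen by their labels as ileum with 3 libraries per genotype. The control libraries are labelled as ileum of C57BL/6J mice with both alleles of Slc39a8 floxed (Slc39a8-fl/fl), and the KO libraries as floxed mice that also carry Cre driven by the Villin promoter, which is active in the intestinal epithelium. The study's methods describe young male mice, 1 mouse per library, and a control group that mixed floxed, wild-type and Villin-Cre mice, so a library's control genotype beyond its label is not known. RNA was extracted from mucosa without sorting cells and reverse transcribed with oligo-dT, and a deletion limited to epithelial cells is therefore read together with transcripts of other mucosal cells. In such samples, fewer cells of a type and less RNA per cell cannot be told apart. The question of the comparison was which ileal genes, beyond the deleted transporter, differ in level between the genotypes.

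SLC39A8 (ZIP8) is a plasma membrane transporter that carries manganese, zinc and iron into cells. Manganese serves as a cofactor for Golgi glycosyltransferases, arginase and mitochondrial superoxide dismutase. The ileum absorbs bile acids and the last of the dietary fat, and its epithelium is a barrier kept by tight junctions, mucus and antimicrobial proteins.

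The ileal libraries held 16749138 to 27903083 expected counts, which are estimated reads per gene. Levels below are CPM, counts relative to library size, scaled with TMM factors over the 6 ileal libraries and not corrected for gene length. The first principal component held 72% of the variance and set ileum control 3 and ileum KO 1 apart from the other libraries. The 11 smooth muscle genes summed to 3476, 3258 and 173.9 CPM in the 3 controls and to 178, 2453 and 2701 CPM in the 3 KO libraries. Ileum control 3 and ileum KO 1 thus held under 0.1 of the median muscle level. Other tissue content differed there too. Crypt stem cell genes summed to 1239 and 922.8 CPM in these 2 libraries and to 308.8 to 414.5 CPM elsewhere. B cell genes summed to 62.7 and 77.1 against 4.7 to 9.8 CPM, and T cell genes to 59.5 and 82.0 against 239.7 to 345.4 CPM. Goblet cell genes were similar, at 16910 to 17900 CPM in all 6. Genes were tested in a fit without and a fit with this muscle class as a term. Fold changes and p-values are from the fit without the class unless the class is named. In ileum KO 2, Aqp8, a water channel of colonic surface cells, reached 61.7 CPM against 0 to 0.33 CPM in the other ileal libraries, and Foxd2 reached 1.18 CPM against 0.04 to 0.15 CPM. Foxd2 stood at 26.7 to 39.9 CPM in colon. Of 6 genes chosen for a high level in colon and almost none in ileum, Aqp8 made up most of the sum in KO 2. Slc16a9 (2.36 CPM against 0 to 0.51 CPM), Foxd2os and Ccn3 were also highest in KO 2 among the ileal libraries. Grin3a lay within the range of the other ileal libraries. Of 9 epithelial markers, 0 had p below 0.05, and Vil1, the gene of the Cre promoter, was at 2586, 2776 and 2391 CPM in the controls and 2678, 2662 and 3093 CPM in the KO libraries.

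No gene differed between the genotypes at an adjusted p below 0.1. Of 15348 genes tested with edgeR, 0 were called (0%) without and 0 with the muscle class, and the smallest adjusted p was 1 and 0.506. At an unadjusted p below 0.05, 34 genes were higher in the KO libraries (0.222%) and 31 lower (0.202%). With the muscle class these were 183 higher (1.19%) and 268 lower (1.75%). DESeq2 called 1 gene without the class and 6 with it. The values of the 3 KO libraries lay wholly above the 3 controls for 294 genes (1.92%), wholly below for 238 (1.55%), and did not overlap in either direction for 532 (3.47%). With 3 values against 3 in random order, groups separate with a probability of 0.1, more than the share seen. A share of 0.05 at p below 0.05 arises without any difference, more than the 0.424% without and 2.94% with the class. The genes named next are the 10 higher and 10 lower with the smallest p among those that did not overlap, had a symbol other than a predicted-gene or antibody segment name and a mean of at least 1 CPM. These genes lead a ranking, and none of them passed the adjusted test in edgeR.

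**Figure D1:**
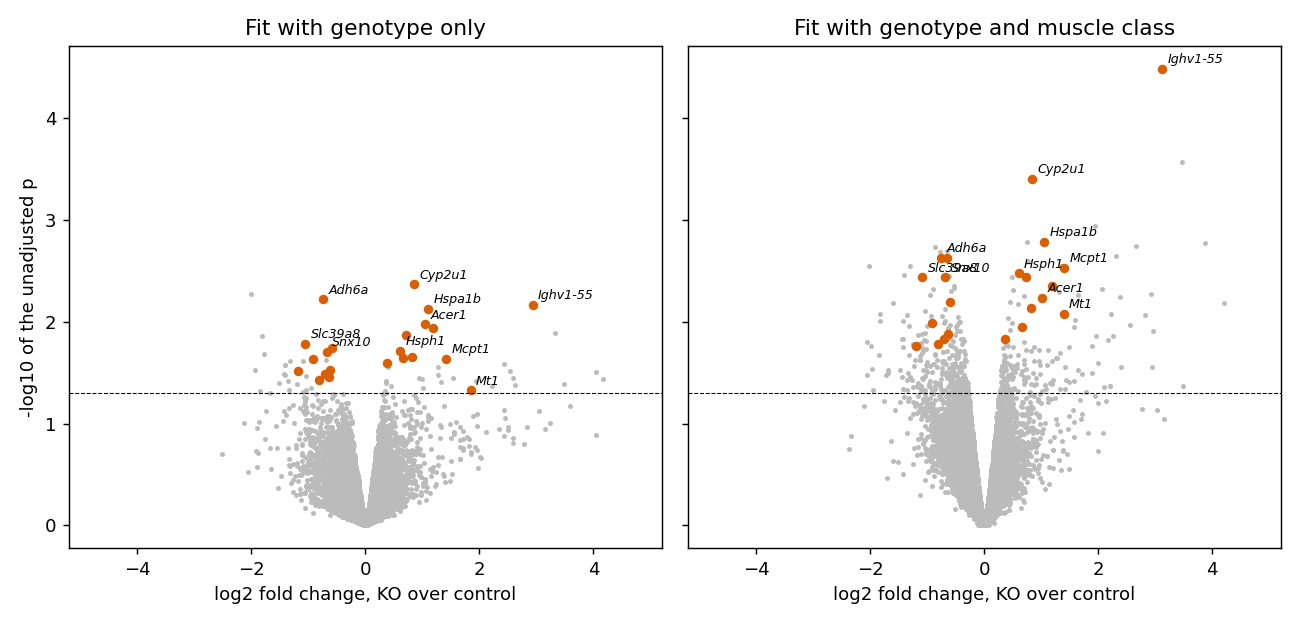
Log2 fold change of KO over control for each ileal gene tested by edgeR, on the x axis, against −log10 of the unadjusted p on the y axis, in the fit without and the fit with the muscle class, with changes up to 5 shown, a dashed line at the unadjusted threshold of 0.05 and genes named in the text in orange. More genes have small p-values with the class, 62 against 6 at p below 0.01, and none passed an adjusted p of 0.1 in either.

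Slc39a8, at chr3:135825279-135888572 on the plus strand of GRCm38, was lower in all 3 KO libraries. It stood at 7.62, 4.75 and 6.17 CPM in the controls and 4.02, 2.40 and 2.53 CPM in the KO libraries. The KO mean was 0.482 of the control mean, and the log2 fold change was −1.06 ± 0.34 (SE, unadjusted p = 0.0164 and adjusted p = 1, edgeR). The deposited values are per gene, not per exon, and the source of the remaining Slc39a8 reads in the KO libraries was not tested. In colon Slc39a8 was at 19.98 to 20.6 CPM in controls and 7.41 to 11.5 CPM in KO libraries.

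Genes near Slc39a8 on chromosome 3 were counted as well. Within 2000000 bases on either side, 15 genes were tested and 0 had p below 0.05. For 1, Gm43379, the groups did not overlap, against 3.47% of all genes. Cyp2u1 and Adh6a, described next, lie on the same chromosome at 4522052 and 2424714 bases from Slc39a8.

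Cyp2u1, a cytochrome P450 that hydroxylates long-chain fatty acids, had the smallest p of the higher genes so chosen. It was at 13.8, 14.3 and 11.1 CPM in the controls and 20.3, 28.3 and 22.1 CPM in the KO libraries. The 3 KO values were all above the controls, with a log2 fold change of 0.84 ± 0.20 (SE, unadjusted p = 0.00429 and adjusted p = 1, edgeR). With the muscle class the unadjusted p was 0.000394 and the adjusted p 0.989, and DESeq2 gave an adjusted p of 0.028 with the class and 1 without it. Adh6a, an alcohol dehydrogenase, had the smallest p of the lower genes that met these criteria. It was at 19.7, 29.3 and 25.8 CPM in the controls and at 15.5, 13.9 and 15.3 CPM in the KO libraries. The log2 fold change was −0.75 ± 0.19 (SE, unadjusted p = 0.00606 and adjusted p = 1, edgeR), and the KO libraries differed less among themselves than the controls did.

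**Figure D2:**
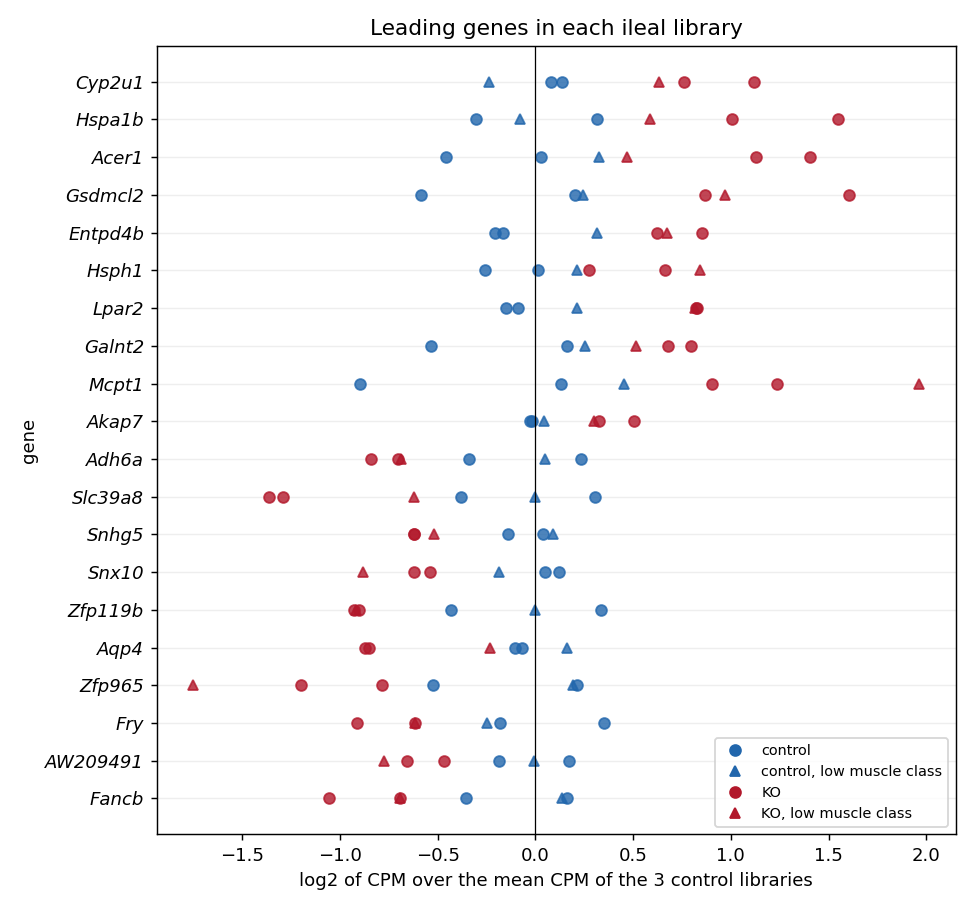
Each point is 1 ileal library, blue for control and red for KO with triangles for the low muscle class, and the x axis is log2 of its CPM over the mean CPM of the 3 controls, for the 10 higher and 10 lower leading genes. For every gene shown the 3 KO points lie on one side of the 3 control points, which the choice of genes required.

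Chaperones of the heat shock response were among the leading genes. HSP70 proteins refold damaged proteins, and HSP110, encoded by Hsph1, is their nucleotide exchange factor. Hspa1b, an inducible HSP70 gene, was at 11.1, 17.01 and 13.0 CPM in the controls and at 20.5, 27.5 and 40.1 CPM in the KO libraries. Its log2 fold change was 1.10 ± 0.29 (SE, unadjusted p = 0.00744 and adjusted p = 1, edgeR). Hsph1 was at 37.0, 44.7 and 51.3 CPM in the controls and at 79.6, 53.6 and 70.3 CPM in the KO libraries. The lowest KO library exceeded the highest control by little, and the log2 fold change was 0.61 ± 0.20 (SE, unadjusted p = 0.0193, edgeR). Hspa1a, nearly identical to Hspa1b, stood at 5.75, 7.27 and 4.50 CPM in controls and 7.82, 7.74 and 16.99 CPM in KO libraries, and reads of this pair cannot be told apart with certainty. Of 15 heat shock factor targets, a list added after the values were seen, 2 were higher at an unadjusted p below 0.05 (0.222% of all genes) and 0 lower. These 2 were Hspa1b and Hsph1, the genes for which the list was added, so the count is a description. The median log2 fold change was 0.08 against −0.01 over all genes.

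The 250 bases before the start of Hspa1b (RefSeq, GRCm38.p6, chr17:34959239-34959488, minus strand) and of Hsph1 (chr5:149636337-149636586, minus strand) are shown because both genes lead the ranking. Capitals mark the inner part of a heat shock element, searched as GAANNTTC and TTCNNGAA on both strands. Each holds 1 match, and 12.8% of 32851 promoter windows of this length hold at least 1. The windows of Hspa1a and Hspa1b differ at 3 of 250 bases.
Hspa1b: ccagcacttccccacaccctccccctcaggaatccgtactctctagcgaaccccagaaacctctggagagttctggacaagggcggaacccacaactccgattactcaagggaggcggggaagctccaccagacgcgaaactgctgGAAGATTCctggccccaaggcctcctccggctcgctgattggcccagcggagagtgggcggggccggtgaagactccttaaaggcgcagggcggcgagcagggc
Hsph1: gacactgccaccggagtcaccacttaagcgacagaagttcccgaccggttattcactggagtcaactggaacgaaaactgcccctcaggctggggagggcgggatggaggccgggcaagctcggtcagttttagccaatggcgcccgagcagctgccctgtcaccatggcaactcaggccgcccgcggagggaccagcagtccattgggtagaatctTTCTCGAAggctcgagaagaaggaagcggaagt

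Acer1 and Lpar2 were also among the leading genes. Acer1, an alkaline ceramidase that cleaves ceramide to sphingosine, was at 13.8, 9.84 and 16.99 CPM in the controls and 18.7, 35.9 and 29.6 CPM in the KO libraries. KO 1 lay close to the highest control, and the log2 fold change was 1.05 ± 0.30 (SE, unadjusted p = 0.0106 and adjusted p = 1, edgeR). Lpar2, a receptor for lysophosphatidic acid, was at 1.997, 1.92 and 2.47 CPM in controls and 3.74, 3.76 and 3.77 CPM in KO libraries, with a log2 fold change of 0.81 ± 0.28 (SE). Of 28 other sphingolipid genes tested, a list that left out Acer1, 0 had p below 0.05 without the muscle class, and 3 were higher with it (Sphk2, Sgms2 and Sptssb), where 1.19% of all genes were higher. Sptssb, a subunit of serine palmitoyltransferase, reached 18.6 CPM in KO 2 against 0.637 to 3.51 CPM elsewhere in the ileum and stood at 338 to 719 CPM in colon. Without KO 2 its p was 0.945.

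The other leading genes that were higher had varied roles. Galnt2, a manganese-dependent enzyme that starts O-linked glycosylation, was at 16.0, 25.9 and 27.6 CPM in controls and 33.0, 40.2 and 37.1 CPM in KO libraries (log2 fold change 0.66 ± 0.23, SE). Mcpt1, a protease of mucosal mast cells, was at 0.54, 1.11 and 1.39 CPM in controls and 3.96, 1.90 and 2.40 CPM in KO libraries (1.42 ± 0.49), while only 3 of 9 listed mast cell genes had enough counts for a test. Akap7, an anchor of protein kinase A, was at 30.1 to 31.7 CPM in controls and 37.8 to 43.6 CPM in KO libraries. Gsdmcl2, a transcribed pseudogene of the gasdermin C family, was at 2.17 to 3.86 CPM in controls and 5.95 to 9.92 CPM in KO libraries. Entpd4b, a nucleotide diphosphatase of the Golgi, was at 7.38, 7.17 and 10.3 CPM in controls and 13.2, 12.8 and 14.9 CPM in KO libraries. Its copy Entpd4 had the same value in 4 of the 6 libraries, so how reads were divided between the copies is uncertain. Entpd4 had been listed beforehand as a marker of C57BL/6 substrain, and the part of substrain in these values was not tested.

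The lower genes included a water channel, a sorting nexin and zinc finger genes. Aqp4, a water channel, was at 17.7, 18.1 and 21.2 CPM in controls and 16.1, 10.53 and 10.4 CPM in KO libraries, so that KO 1 nearly met the controls (log2 fold change −0.63 ± 0.23, SE). Snx10, which acts in endosomal sorting, was at 9.38, 8.94 and 7.60 CPM in controls and 4.68, 5.94 and 5.61 CPM in KO libraries (−0.68 ± 0.23). Snhg5, a non-coding host transcript of small nucleolar RNAs, was at 9.26 to 10.9 CPM in controls and 6.63 to 7.10 CPM in KO libraries. Zfp119b, a zinc finger gene within 2000000 bases of Acer1, was at 2.78 to 4.72 CPM in controls and 1.97 to 2.01 CPM in KO libraries. Within that distance of Acer1, 53 genes were tested and 2 did not overlap (3.77%), against 3.47% of all genes. Fry, Zfp965, AW209491 and Fancb, the last a member of the Fanconi anaemia core complex, had log2 fold changes of −0.71, −1.18, −0.63 and −0.81.

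Antibody gene segments were left out of that choice and were counted apart. Ighv1-55, a heavy chain variable segment, was at 1.51, 2.17 and 0.199 CPM in controls and 5.94, 11.6 and 12.03 CPM in KO libraries, with a log2 fold change of 2.93 ± 0.77 (SE, unadjusted p = 0.00682, edgeR). With the muscle class edgeR gave an adjusted p of 0.506 and DESeq2 of 7.63e-10. Of 185 heavy chain variable segments, 26 had enough counts for a test, 23 of them had a positive log2 fold change and 7 were higher at an unadjusted p below 0.05 (13 with the class), against 0.222% of all genes (1.19%). Of 160 kappa variable segments, 45 were tested, 41 were positive and 2 were higher (14 with the class). A segment could pass the count filter through the KO libraries in which it was high. The signs and counts of the tested segments are therefore a description and not a test. Summed over the heavy segments, the libraries held 20.9, 59.0 and 32.0 CPM in controls and 29.2, 95 and 198.7 CPM in KO, so the groups overlapped. Segments resemble each other in sequence, so their shares of the reads are uncertain. The plasma cell markers gave 1 of 13 higher with the muscle class (Ighg2b) and 0 without it.

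Gm42878, named after its values were seen, was the gene called by DESeq2 without the class (adjusted p = 0.00209). Its counts were 15, 52 and 31 in the controls and 0 in all 3 KO libraries, and also 0 in all 6 colonic libraries, controls included. Against a limit of 3 counts over the KO group it was at least 36.9-fold lower. It overlaps Tmem116, Adam1a and Mapkapk5, none of which had p below 0.05. Ugt1a6b, a glucuronosyltransferase also named after its values were seen, was at 1.15, 0.656 and 0.796 CPM in controls and 0.165, 0.287 and 0.171 CPM in KO libraries, below the mean required of the leading genes (log2 fold change −2.02 ± 0.50, SE).

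Metal handling was next described from lists of genes. None of the 13 other metal importers tested, including Slc39a14 and Slc11a2, had p below 0.05 in either fit. Of 13 exporters and Golgi manganese pumps only Slc40a1, the iron exporter ferroportin, did. Slc40a1 was lower with the muscle class (log2 fold change −0.35 ± 0.15, SE). Over all genes 1.75% were lower and 1.19% higher with the class, and 0.202% and 0.222% without it. None of 16 manganese-dependent enzymes on a list that left out Galnt2 had p below 0.05 in either fit. Mt1, a metallothionein that binds zinc and copper, was at 153, 136 and 73.0 CPM in controls and 67.5, 659 and 583 CPM in KO libraries. KO 1 lay below all controls, while KO 2 and KO 3 lay far above them (log2 fold change 1.84 ± 0.76, SE, unadjusted p = 0.0469, edgeR). Within the muscle class, KO 1 over control 3 was 0.925, and among the other 4 libraries the ratio was 4.30 (unadjusted p = 1.63e-05, adjusted p = 0.126, edgeR). Mt2, its neighbour, was at 71.9, 56.2 and 18.3 CPM in controls and 19.9, 81.7 and 47.7 CPM in KO libraries (log2 fold change 0.02 ± 0.62, SE). Without KO 2 the unadjusted p of Mt1 was 0.134 (edgeR).

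The 250 bases before the starts of Mt1 (chr8:94178839-94179088) and Mt2 (chr8:94172368-94172617), both on the plus strand (RefSeq, GRCm38.p6), are shown because these neighbours differed in pattern. Capitals mark the core of the metal response element, searched as TGCGCNC and TGCACNC on both strands and found in 21.4% of 32851 windows. Within its window Mt1 holds 1 match and Mt2 holds 3. The windows sit differently against the GENCODE gene starts, at 94179082 for Mt1 and 94172664 for Mt2. Sequence outside the windows was not searched, so these matches do not count all elements of either gene.
Mt1: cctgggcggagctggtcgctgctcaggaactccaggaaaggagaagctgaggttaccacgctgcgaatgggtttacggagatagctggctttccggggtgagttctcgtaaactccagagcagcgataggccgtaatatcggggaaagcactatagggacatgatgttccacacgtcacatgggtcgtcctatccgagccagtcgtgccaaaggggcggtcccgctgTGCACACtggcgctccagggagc
Mt2: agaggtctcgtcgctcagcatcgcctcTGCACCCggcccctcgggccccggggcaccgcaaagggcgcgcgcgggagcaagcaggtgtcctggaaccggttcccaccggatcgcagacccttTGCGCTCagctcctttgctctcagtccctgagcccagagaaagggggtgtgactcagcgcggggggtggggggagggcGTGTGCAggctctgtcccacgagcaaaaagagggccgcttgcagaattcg

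**Figure D3:**
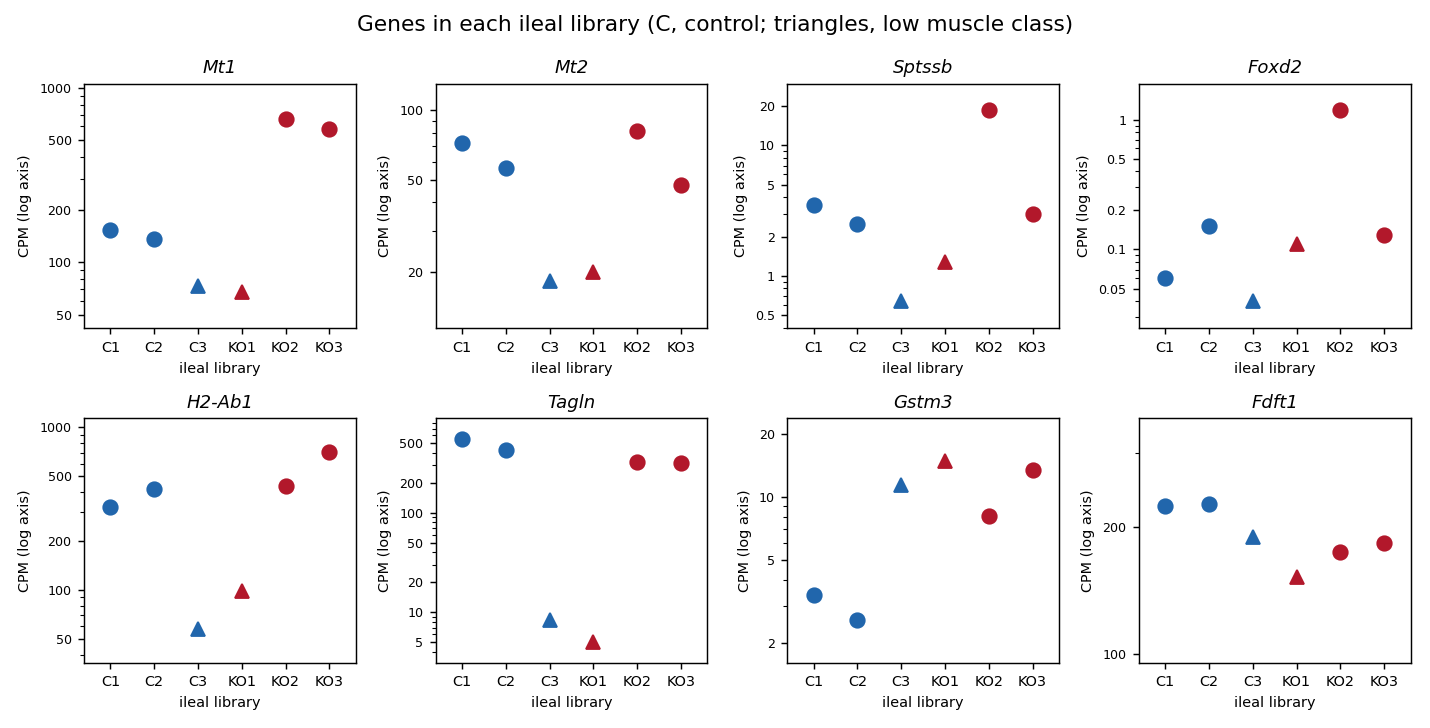
Level in CPM, on a log axis, of 8 genes in each ileal library, blue for control (C) and red for KO, with triangles for the low muscle class. Mt1 is high in KO 2 and KO 3 alone, Sptssb is highest in KO 2, and Tagln and H2-Ab1 are low in control 3 and KO 1.

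Of 475 genes on 36 lists, 453 were tested. Without the muscle class 1 was higher at an unadjusted p below 0.05 (Mt1) and 0 lower, against 0.222% and 0.202% of all genes. With it 20 were higher and 14 lower, against 1.19% and 1.75% of all genes. Of the 20, 5 were MHC class II genes, and of the 14, 8 were smooth muscle genes. Both lists stood far lower in control 3 and KO 1 than in the other libraries.

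Genes of MHC class II presentation, which display peptides to T helper cells, had 5 of 7 members higher with the class (H2-Ab1, H2-Eb1, H2-DMa, H2-DMb1 and Cd74), against 1.19% of all genes, 0 without it and 1 without the 2 low muscle libraries. H2-Ab1 was at 323, 417 and 57.2 CPM in controls and 98.6, 434 and 711 CPM in KO libraries, with a log2 fold change of 0.68 ± 0.21 (SE, unadjusted p = 0.011, edgeR, with the class). The median over the list was 0.53 and became −0.10 without KO 3. Markers of macrophages and dendritic cells gave 0 of 10 at an unadjusted p below 0.05, and B cell markers 0 of 6. Interferon-stimulated genes gave 0 of 22.

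Smooth muscle genes, by which the class was set, were lower with the class in 8 of 11, against 1.75% of all genes. Tagln was at 554, 430 and 8.44 CPM in controls and 5.01, 325 and 319 CPM in KO libraries (log2 fold change −0.66 ± 0.15, SE, with the class). Without the 2 low libraries, 4 of 11 were lower at an unadjusted p below 0.05, where 1.79% of 15473 genes were lower and 1.32% higher. The part of muscle content, or of other tissue content that differs with the class, in other results with the class was not tested.

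**Figure D4:**
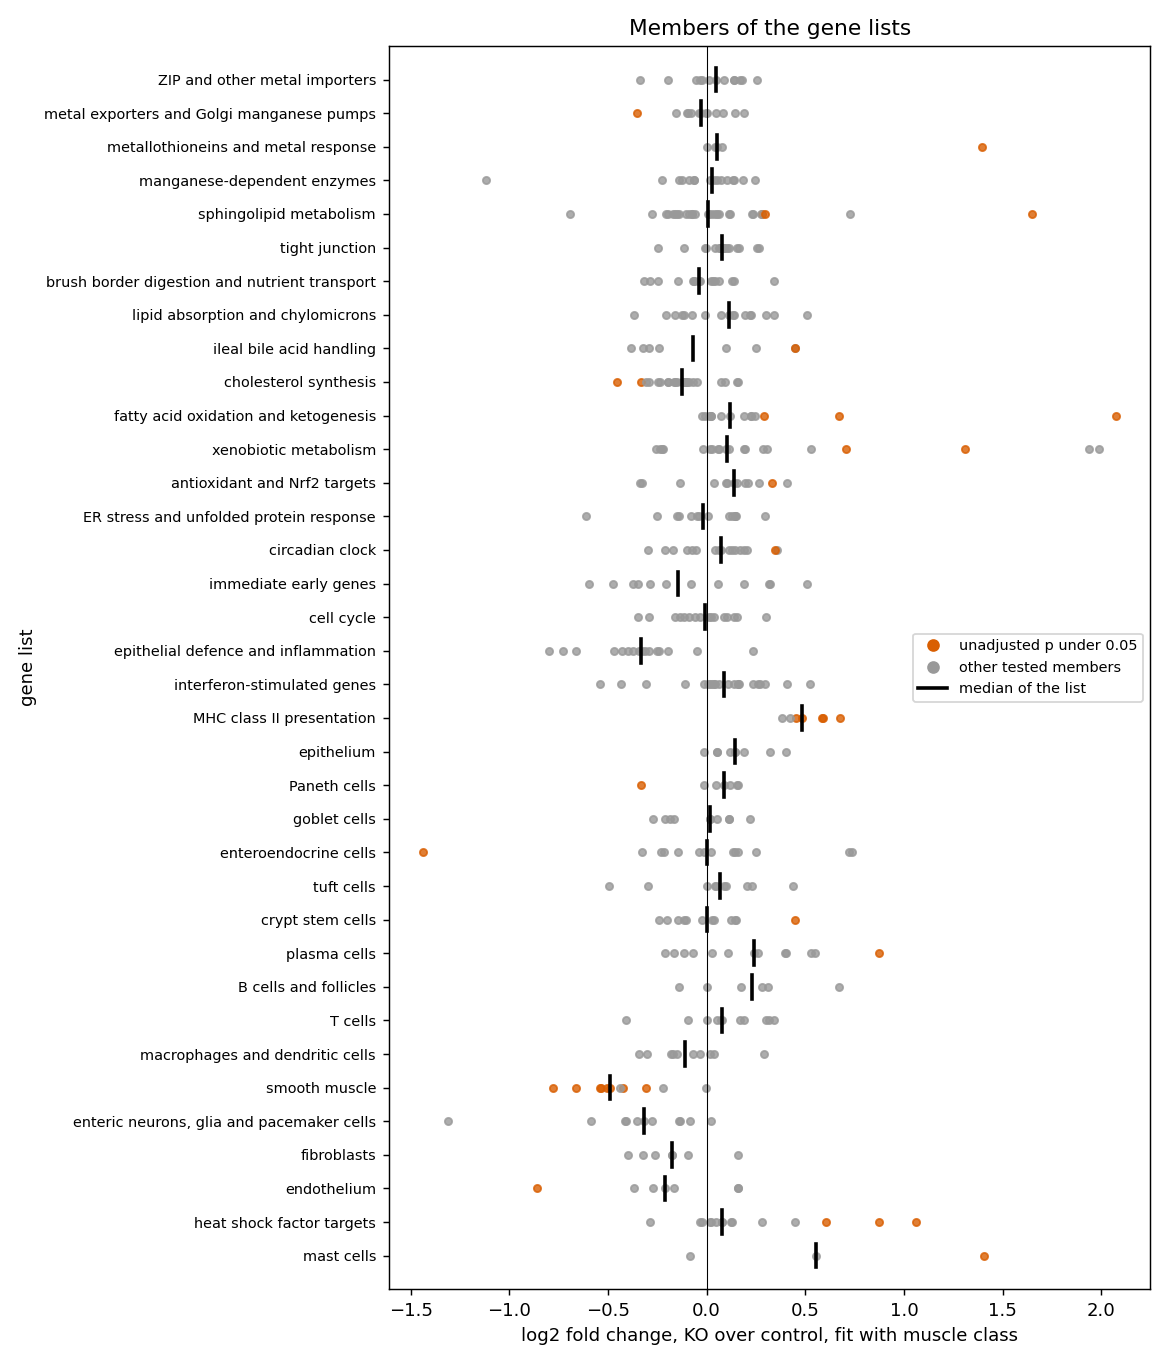
Log2 fold change of each tested gene by list, from the fit with the muscle class, with orange for an unadjusted p below 0.05 and a bar at the list median (the sex and substrain lists are left out). MHC class II genes all lie above 0 and smooth muscle genes all below, while most list medians lie near 0.

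Genes of lipid and sterol metabolism gave few small p-values. Of 23 cholesterol synthesis genes, 19 had a negative log2 fold change and the median was −0.12, against −0.01 over all genes. Without the class, 0 had p below 0.05. With the class 2 were lower (Fdft1 and Msmo1), where 1.75% of all genes were lower. Fdft1, squalene synthase, was at 225, 227 and 189.5 CPM in controls and 152, 175 and 183.5 CPM in KO libraries. Its 2 sets of 3 values did not overlap, yet the shift was small, with a log2 fold change of −0.33 ± 0.16 (SE). On this list 3 genes, Fdft1 included, did not overlap and were lower, and 0 were higher, against 1.55% and 1.92% of all genes. None of 17 genes of lipid absorption had p below 0.05 in either fit.

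Of 8 bile acid genes, Abcc2 was higher with the class, and Fabp6, the ileal bile acid binding protein, was at 3056, 4858 and 4164 CPM in controls and 5091, 5009 and 6423 CPM in KO libraries (log2 fold change 0.45 ± 0.23, SE, unadjusted p = 0.0907, edgeR). Of 20 genes of xenobiotic metabolism, 2 were higher with the class, where 1.19% of all genes were higher. Gstm3, a glutathione transferase, was at 3.39, 2.57 and 11.4 CPM in controls and 14.8, 8.06 and 13.4 CPM in KO libraries (1.31 ± 0.35 with the class), and Ces2a, a carboxylesterase, did not overlap between groups.

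Barrier and defence genes gave no call. Of 16 tight junction genes, 0 had p below 0.05 in either fit and 12 had a positive log2 fold change. In each direction 1 did not overlap, against 1.92% of all genes higher and 1.55% lower. Of 16 epithelial defence genes, 15 had a negative log2 fold change, and 0 had p below 0.05. Reg3g, an antimicrobial lectin, was at 23470, 33180 and 1631 CPM in controls and 2532, 9805 and 19710 CPM in KO libraries, so the groups overlapped. Without the 2 low libraries 6 of 16 were lower at an unadjusted p below 0.05, against 1.79% of 15473 genes.

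The colonic libraries were set beside the ileal values for the 20 leading genes. It is not stated whether the 2 tissues came from the same mice. Of the 10 higher genes, 9 had a positive log2 fold change in colon and 4 were higher there at an unadjusted p below 0.05, against 0.966% of 16558 genes. Of the 10 lower genes, 7 were negative and 1, Slc39a8, was lower at that p, against 1.36% of genes. Acer1 (0.63 ± 0.24), Entpd4b (0.66 ± 0.20) and Hsph1 (0.74 ± 0.25) had positive log2 fold changes in colon as in ileum. Mcpt1, the other of the 4, was near the floor, at 0 CPM in colon controls and 0.052 to 0.143 CPM in colon KO libraries. The study called Acer1 and Entpd4b from its ileal and colonic data combined, so their shared direction is a description. That of Lpar2 was −0.01 ± 0.24 in colon, and its difference between tissues had an unadjusted p of 0.0302 (edgeR). For AW209491 the difference was 0.95 ± 0.30 (unadjusted p = 0.00853, edgeR). No difference between tissues passed an adjusted p of 0.1 (0 of 16558 genes, 0%).

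**Figure D5:**
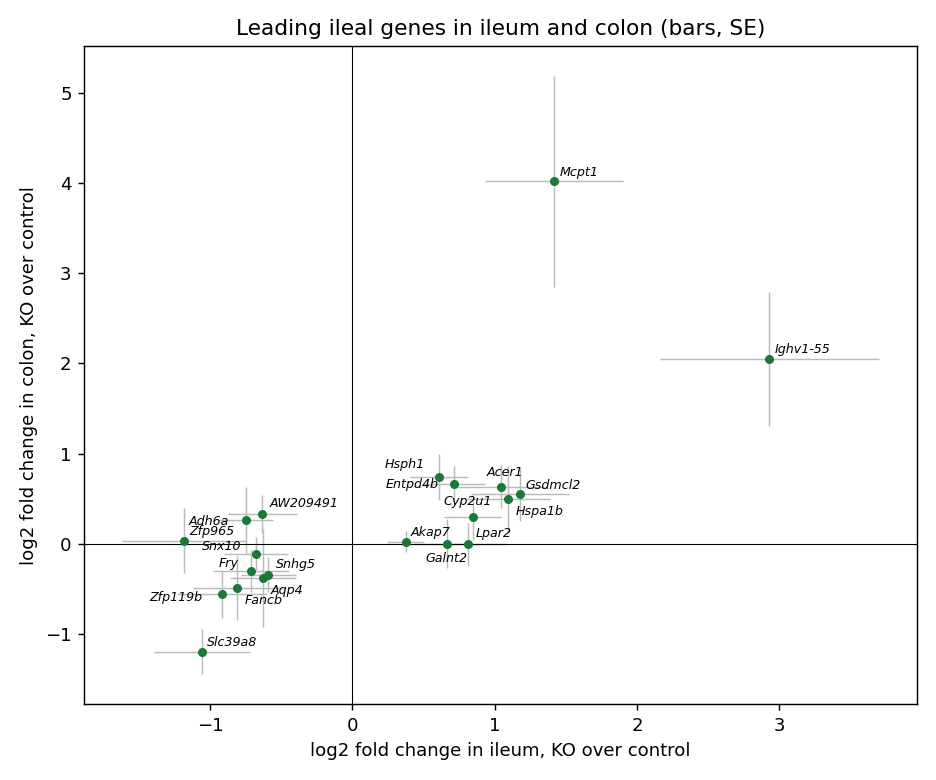
Log2 fold change of KO over control in ileum, on the x axis, against colon, on the y axis, for the leading genes and Ighv1-55, with bars of 1 SE in each tissue. Slc39a8 is negative and Acer1, Entpd4b and Hsph1 positive in both, while Lpar2 and Galnt2 are near 0 in colon, and Mcpt1 had almost no counts there.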

How the data were processed

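RNA-seq of ileal mucosa was compared between 3 control and 3 KO libraries, grouped by their labels. The authors aligned reads to mm10 with STAR and deposited expected counts per gene, which are not normalized. The study's reporting summary says that reads with a unique position were kept, that UMI-tools took out duplicates and that FeatureCounts, whose default output is whole counts, made the count file, while the table holds some values that are not whole. It is therefore uncertain how reads of similar genes entered these values. Of the rows, 53715 were genes and 92 were spike-ins, which were left out, and 53620 identifiers had a symbol. Expected counts were rounded. In edgeR 4.0.16 (R 4.3.3), filterByExpr kept 15348 genes, libraries were scaled by TMM, and the quasi-likelihood test (glmQLFit, glmQLFTest) was adjusted by Benjamini-Hochberg over all genes, with a threshold of 0.1. SE is the log2 fold change divided by the root of F. The difference between tissues came from a fit of all 12 libraries.

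A term for the muscle class, set from the summed smooth muscle CPM, was added in a further fit. The members, gene lists and tests were chosen with earlier results of these data known, and the lists of heat shock and mast cell genes after these values were seen. The leading genes follow the rule given with them, with the same 20 in both fits. The alternatives were DESeq2 1.42.0, limma-voom (limma 3.58.1), other scaling and filters, a replicate block, all 12 libraries and each library left out. Library depth was 16749138 to 27903083 expected counts, and intervals for genes of few counts cover counting error only. The steps were tested on simulated data. Promoters and motifs came from RefSeq. Some genes of the lists are not reported here.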

Additional observations from a re-analysis of the deposited data

How the results depend on the processing

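With no gene called by edgeR, the number of calls rested on the tool and on the muscle class. Without the class, DESeq2 called 1 gene, and leaving out the 2 low muscle libraries gave 1 (Gm16867). Leaving out each library in turn gave 0 to 1, the 1 without control 3 (Gm16867). At an unadjusted p below 0.01, the count of 6 became 25 in DESeq2, 20 with all genes of at least 1 count, 38 in the fit of all 12 libraries, 62 with the muscle class, 52 with the log2 muscle sum and 72 without the low libraries. Leaving out single libraries gave 4 (without control 1 or KO 2) to 27 (without control 3 or KO 1), with 15 without control 2. With the class, the 0 calls became 6 in DESeq2, 189 with all genes of at least 1 count and 1 with all 12 libraries, and leaving out each library gave 0 to 3. Without control 2 the 3 were Cyp3a44, Ighv1-55 and Igkv12-44, and without control 3 or KO 1 the call was Gm16867. Its count of 62 at p below 0.01 became 100, 419 and 120 in these settings, and 46 to 264 with each library left out. The replicate numbers are shared, and the deviations of same-numbered libraries correlated at −0.579, 0.45 and −0.734. The largest correlation, 0.838, was that of control 3 with KO 1, the 2 low muscle libraries. Because muscle and other tissue content enter these values, they cannot tell whether same-numbered samples were paired. With a replicate block, 1 gene had p below 0.01, and with the block and the class together, 57 were called and 160 had p below 0.01. The causes were not tested. Over 24 named genes, all 456 values from alternatives to the fit without the class kept their direction, and none passed the threshold. Starting from the fit with the class, DESeq2 called Cyp2u1 and Ighv1-55 of these genes. In edgeR, Ighv1-55 was called there with all 12 libraries and without control 2. Of 304 list medians, 292 moved by less than the median SE of the log2 fold changes of the list's members. With 3 libraries against 3, an exact permutation test of a single gene cannot go below 0.1.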

Other observations

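Gm16867, a predicted gene on chromosome 14 that overlaps the end of Entpd4 on the opposite strand, was at 0, 0 and 16.6 CPM in the ileal controls and 38.9, 35.02 and 26.9 CPM in the ileal KO libraries. In colon it was at 0, 0 and 4.18 CPM in controls and 3.33, 13.9 and 6.45 CPM in KO libraries. In both tissues 2 of 3 controls were at 0 and the KO libraries were not. The ileal controls at 0 were also those with the lowest Entpd4 and Entpd4b. Entpd4 was on the list of substrain markers, and the part of substrain was not tested. Nnt, a gene that differs between C57BL/6 substrains, was at 6.60, 3.74 and 28.2 CPM in the ileal controls and 26.5, 21.2 and 8.65 CPM in the KO libraries. The highest and the lowest libraries of each genotype overlapped.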
